A study of Mus musculus with 27 samples.

Results

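The comparison set arrays taken at opposite phases of a 24 h day against each other: 6 arrays of NIH/3T3 fibroblasts harvested 24 h or 48 h after a forskolin pulse against 6 arrays harvested at 12 h or 36 h. These 12 arrays were chosen by the hours in their labels, from the 27 arrays of the series. Each group held 3 arrays per time point, one from each of 3 experiments that the labels call biological replicates. NIH/3T3 is an established mouse embryonic fibroblast line. All groups shared one treatment, a 2 h exposure to 15 µM forskolin, which turns on adenylyl cyclase and so the cyclic AMP pathway, followed by serum-free medium up to harvest. No group here is an untreated reference, and the arrays at the 5 other times serve only to show the course. The 24 h and 48 h arrays make the 24/48 h group, the 12 h and 36 h arrays the 12/36 h group, 48 h against 36 h is the second cycle and 24 h against 12 h the first.

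In the mammalian clock the transcription factors CLOCK and BMAL1 (gene Arntl) bind E-boxes and drive the genes of their own repressors, the PER and CRY proteins and the nuclear receptors REV-ERBα and REV-ERBβ (Nr1d1 and Nr1d2). REV-ERB receptors repress and ROR receptors activate Arntl through shared elements, which sets Arntl opposite in phase to the E-box genes. The PAR bZIP factors DBP, TEF and HLF carry the rhythm on to D-boxes in output genes, where NFIL3 competes with them. In cultured fibroblasts each cell keeps its own rhythm, and a pulse of forskolin, dexamethasone or serum is used to set the cells to a common phase. Cells of a population then lose that common phase over days, so a population average is damped.

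Levels are log2(intensity + 12.1) after quantile normalization. A change is the level at 24/48 h minus that at 12/36 h, ± SE, estimated by limma with the experiment and the cycle as blocks. A pair is the 2 arrays of 1 experiment and 1 cycle, which gives 6 pairs. A call needed an adjusted p below 0.05 over all 7453 probe sets that passed the filter on low values and 1 sign in both cycles. Genes were represented by their brightest probe set, which gave 5643 genes. A probe set name that ends in _f_at or _r_at marks probes that may match other transcripts. Among the genes named below, the brightest probe sets of Cry1, Nfil3, Noct, Kif20a, Ube2c, Zcchc7 and Tubb3 have such names, as have those of Pla2g4f, Trav9d-3 and Ctrb1. Of 15 fibroblast markers on the array 14 passed the filter, Fap being the exception, and their summed level ran from 17.12 to 17.29 at 24/48 h and from 17.09 to 17.32 at 12/36 h. Among markers of other cells, 2 of 7 adipocyte, 7 of 13 muscle, 5 of 11 neuron and glia, 4 of 12 macrophage and leukocyte and 2 of 12 epithelial and endothelial markers passed, with overlapping summed levels in both groups. Among those passing were Tubb3, at a mean level of 10.69 over the 12 arrays, Cd14 at 9.69, Lep at 9.65, Cdh1 at 9.01 and Myod1 at 7.98. Among those not passing were Pparg and Adipoq, Ptprc and Lyz2, and Epcam and Krt8. The actin 3′ to 5′ ratio ran from 1.29 to 1.65 at 24/48 h and from 1.11 to 1.73 at 12/36 h, and the Gapdh ratio from 0.708 to 0.916 at 24/48 h and from 0.703 to 0.799 at 12/36 h. The 12 h arrays of experiments 1 and 3 carry a source label worded unlike the others, and results that move without them are given with that value.

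Promoter windows are shown for Tef, Per3 and Arntl, the 3 clock genes whose values are given array by array below and whose windows held a motif. Each runs from 250 bases before to 50 bases after an annotated start, is given 5′ to 3′ on the gene's strand, and comes from RefSeq on GRCm38.p6. Capitals mark an E-box (CACGTG) in Tef, D-boxes (TTATGTAA) in Per3 and a ROR element (TAGGTCA) in Arntl.
Tef, chr15:81811164-81811463, plus strand: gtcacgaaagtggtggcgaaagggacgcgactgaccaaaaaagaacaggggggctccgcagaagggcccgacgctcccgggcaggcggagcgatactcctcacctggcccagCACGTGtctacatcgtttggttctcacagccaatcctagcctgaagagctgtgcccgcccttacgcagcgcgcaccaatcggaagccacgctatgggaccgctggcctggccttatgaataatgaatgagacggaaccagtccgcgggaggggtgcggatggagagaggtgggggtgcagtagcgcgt
Per3, chr4:151044616-151044915, minus strand: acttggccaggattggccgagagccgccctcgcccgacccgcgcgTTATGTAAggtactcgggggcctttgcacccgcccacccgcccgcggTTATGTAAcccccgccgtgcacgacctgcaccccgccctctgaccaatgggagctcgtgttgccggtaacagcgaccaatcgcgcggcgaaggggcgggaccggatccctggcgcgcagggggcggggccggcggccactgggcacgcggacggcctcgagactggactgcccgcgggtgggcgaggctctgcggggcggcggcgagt
Arntl, chr7:113207261-113207560, plus strand: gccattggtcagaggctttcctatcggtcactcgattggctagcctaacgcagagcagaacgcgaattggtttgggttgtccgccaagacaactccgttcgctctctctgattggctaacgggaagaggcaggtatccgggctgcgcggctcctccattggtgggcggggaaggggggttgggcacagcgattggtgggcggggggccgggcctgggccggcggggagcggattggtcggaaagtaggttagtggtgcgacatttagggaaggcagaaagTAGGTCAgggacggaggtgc

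Counted from the start site, the Tef E-box begins at base −138, and the window of another annotated start of Tef, chr15:81802423-81802722 on the plus strand, has one that begins at −127. The Per3 D-boxes begin at −205 and −158, and the Arntl element begins at 30. The window of another annotated start of Arntl, chr7:113207215-113207514 on the plus strand, ends before that element and held none of the motifs. Motifs were searched on both strands as these exact letters, together with the E-box variant CACGTT. All 8 genes looked up had a window. Among 32851 promoters of this length 7.15% held the E-box, 4.68% the variant, 0.938% the D-box and 2.61% the ROR element. The variant was found in Nr1d1, and the windows of Dbp, Rora, Hivep2 and Mxd3 held none of these letters. A match is a stretch of sequence and not a measured binding site.

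Few probe sets passed the test of the difference between the opposite phases after adjustment over all of them. Of 7453 probe sets 1 was called, lower at 24/48 h (0.0134%), and 0 were called higher (0%). Among the 5643 genes 0 were called (0%), the smallest adjusted p being 0.0874. At an unadjusted p below 0.05 there were 912 probe sets, where 372.7 are expected by chance. With 1 sign in both cycles these were 487 higher (6.53%) and 413 lower (5.54%), or 373 genes higher (6.61%) and 313 lower (5.55%). In all 6 pairs 315 probe sets were higher (4.23%) and 268 lower (3.6%), or 240 genes higher (4.25%) and 196 lower (3.47%). In RNA of whole cultures a change in each cell and a change in the share of cells that express a gene cannot be told apart. The values below are mostly differences that did not pass the adjusted test, and they are given as values.

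The called probe set, 92631_f_at, is not listed in the platform annotation used here and stays unnamed. By the ending of its name, its probes may also match more than 1 transcript. It read 9.85, 9.78 and 9.53 at 24 h and 9.21, 9.72 and 9.51 at 48 h, against 10.39, 10.83 and 10.61 at 12 h and 10.10, 10.23 and 9.93 at 36 h, in experiments 1 to 3. Every 24/48 h array lay below every 12/36 h array. Its change was −0.75 ± 0.10 (adjusted p = 0.0315 by limma, n = 6 arrays per group), with −0.61 in the second cycle and −0.89 in the first. Between 24 h and 36 h it moved the other way, by 0.36, which groups without overlap must do. The call was lost with each array centred on its median, without the filter on low values, with no experiment block, with each pair as a block, with a linear term in hours, without the intensity trend, without any 1 of the 3 experiments and without the 12 h arrays of experiments 1 and 3. The change was between −0.76 and −0.55 in these settings.

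Of the genes listed here as core clock genes, 3 activators and 8 repressors passed the filter and none was called. Timeless was counted among the repressors by that list. Per3, a period gene, read 10.19, 9.37 and 10.47 at 24 h and 9.87, 9.51 and 9.86 at 48 h, against 9.62, 9.40 and 8.98 at 12 h and 8.91, 9.02 and 9.24 at 36 h. It was higher at 24/48 h in 5 of 6 pairs, the exception being the first cycle of experiment 2, at −0.03. The groups overlapped through the 24 h and 48 h arrays of that experiment. Its change was 0.68 ± 0.15 (adjusted p = 0.186 by limma), almost equal in the cycles at 0.69 in the second and 0.68 in the first, with −0.95 between 24 h and 36 h. Apart from Bhlhe40, the other repressors were less regular over the pairs. Cry1, a cryptochrome that represses CLOCK and BMAL1, had a change of 0.00 in the second cycle and 0.95 in the first. Nr1d2, which encodes REV-ERBβ, had 1.04 in the second cycle and −0.24 in the first. Per1 was 0.36 ± 0.24 higher at 24/48 h and Bhlhe40, which encodes the E-box repressor DEC1, 0.42 ± 0.27 higher, in 4 and 6 of 6 pairs. Cry2, Nr1d1 and Timeless had changes of 0.09 ± 0.15, −0.08 ± 0.16 and −0.05 ± 0.11. Each of these 3 took the other sign when experiments or arrays were left out, and Timeless also with arrays centred on their medians. Over the 8 repressors the median change was 0.38, with 6 positive, beside 0.00 over all genes tested, of which 2847 of 5643 were positive.

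Arntl, which encodes the activator BMAL1, was lower at 24/48 h in all 6 pairs. It read 8.43, 8.58 and 8.43 at 24 h and 8.75, 8.80 and 8.89 at 48 h, against 8.96, 8.69 and 8.68 at 12 h and 9.37, 8.89 and 9.03 at 36 h. The 24 h arrays were the 3 lowest of the 12, but the 48 h arrays overlapped with the 12 h arrays. Its change was −0.29 ± 0.10 (adjusted p = 0.299 by limma), with −0.28 in the second cycle, −0.30 in the first and 0.61 between 24 h and 36 h. The pairs of experiment 1 had the largest differences, −0.53 and −0.62, and without that experiment the change was −0.15. Rora, a ROR receptor, was higher in all 6 pairs, with a lowest, median and highest level of 8.70, 9.10 and 9.66 at 24/48 h against 8.61, 8.71 and 9.22 at 12/36 h. Its change was 0.29 ± 0.09 (adjusted p = 0.284 by limma), while that of Clock was 0.25 ± 0.14.

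**Figure D1:**
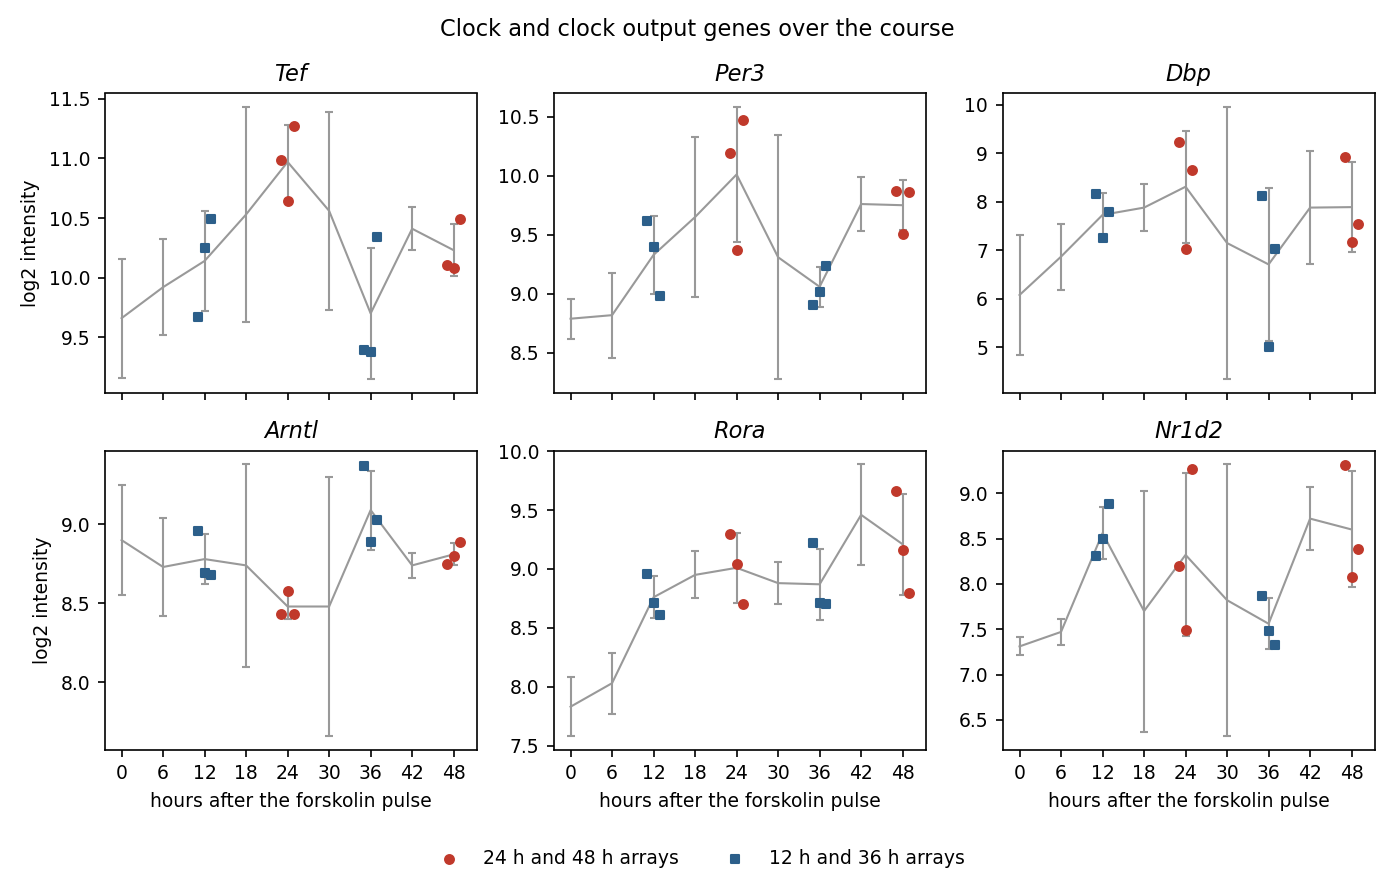
Log2 intensity of 6 clock and clock output genes against hours after the forskolin pulse. Red circles are the 24 h and 48 h arrays, blue squares the 12 h and 36 h arrays, and the grey line and bars give the mean ± SD of 3 arrays at all 9 times. Tef, Per3 and Dbp have a higher mean at 24 h than at 12 h and 36 h, Arntl a lower one.

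Tef, a PAR bZIP factor, had the clearest alternation of the clock output genes. It read 10.99, 10.64 and 11.27 at 24 h and 10.11, 10.08 and 10.49 at 48 h, against 9.67, 10.25 and 10.49 at 12 h and 9.39, 9.38 and 10.34 at 36 h. The 24 h arrays lay above all 12/36 h arrays, while the 48 h arrays did not. Its change was 0.68 ± 0.12 (adjusted p = 0.0941 by limma), higher in 6 of 6 pairs. Its mean level over the course was 9.66 at 0 h, then 10.14 at 12 h and 10.97 at 24 h, and later 9.70 at 36 h and 10.23 at 48 h. With a linear term in hours in place of the cycle, which takes out a steady drift, the change of Tef was 0.97 ± 0.14 (adjusted p = 0.0438 by limma), and Tef was then the only probe set called. That fit left 522 probe sets at an unadjusted p below 0.05, of which 354 were also at that level with the cycle as a block.

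Dbp, the PAR bZIP factor whose gene is a direct CLOCK and BMAL1 target, had the largest change of the clock outputs. Its lowest, median and highest levels were 7.02, 8.11 and 9.23 at 24/48 h against 5.00, 7.52 and 8.16 at 12/36 h. The 5.00 was the 36 h array of experiment 2, next to 7.02 and 8.11 in the other experiments at that time. The change was 0.87 ± 0.25 (adjusted p = 0.257 by limma), with 1.18 in the second cycle, 0.57 in the first and −1.59 between 24 h and 36 h. It was higher in 5 of 6 pairs, and without experiment 2, which holds the pair of opposite sign, it was 0.82. Nampt, which encodes the rate-limiting enzyme of NAD salvage, and Fkbp5, a glucocorticoid-induced immunophilin gene, were higher in all 6 pairs, by 0.30 ± 0.12 and 0.23 ± 0.11. Fkbp5 did not turn between 24 h and 36 h, at 0.07, whereas Nampt had −0.17. Nfil3, which competes with the PAR bZIP factors, had −0.13 ± 0.15 on its brighter probe set and 0.04 ± 0.19 on the other. The brighter probe set of Noct, which encodes nocturnin, had 0.15 ± 0.10, against 0.68 ± 0.17 in 6 of 6 pairs on a dimmer one. Usp2, Pnp, Cirbp and Elovl6 had changes of −0.15, −0.20, −0.01 and 0.22, with SEs of 0.13, 0.16, 0.14 and 0.20. A dimmer probe set of Usp2 had the other sign, at 0.39 ± 0.33 and higher in 5 of 6 pairs.

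The 5 genes whose levels followed Per3 most closely, by Pearson correlation over the 12 arrays after the experiment means were taken out, were Zcrb1 at 0.870, Srsf11 at 0.841, Stk38 at 0.840, Ppp1r17 at 0.839 and Pi4k2a at 0.819. They were selected as the highest among all genes, and each was read on the same 12 scaled arrays as Per3. The difference of Per3 between the groups is part of the correlation, so the common sign of their changes is no result. Stk38, a kinase gene of the NDR family, was 0.52 ± 0.12 higher at 24/48 h in all 6 pairs. Srsf11, a splicing factor gene, was 0.33 ± 0.08 higher and Pi4k2a, a phosphatidylinositol 4-kinase gene, 0.25 ± 0.09 higher, each in all 6 pairs. Over all genes 4.25% were higher in all 6 pairs. Zcrb1, the closest of the 5, was 0.22 ± 0.13 higher, in 4 of 6 pairs (adjusted p = 0.503 by limma), and Ppp1r17 0.78 ± 0.39 higher, in 5 of 6. None of the 5 was called.

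Over all genes, the 10 with the smallest p among those higher in all 6 pairs were Hivep2, Fstl1, Tef, Dnajb9, Nolc1, Nxf1, Klf4, Smoc2, Asb6 and Trappc10. They are the extreme of 240 such genes and were selected on these differences, so their common sign is no result. Hivep2, a zinc finger factor gene, read 8.17, 8.62 and 8.39 at 24 h and 8.31, 8.85 and 9.06 at 48 h, against 7.44, 7.43 and 7.27 at 12 h and 7.86, 8.19 and 8.20 at 36 h. Only the 24 h array of experiment 1 lay inside the range of the 12/36 h arrays. The change was 0.84 ± 0.13 (adjusted p = 0.0874 by limma). Its mean was 6.20 at 0 h and 8.74 at 48 h, and with the linear term the change was 0.57 ± 0.15.

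Fstl1, a gene for a secreted glycoprotein, averaged 13.13 ± 0.37 at 24/48 h and 12.56 ± 0.59 at 12/36 h (mean ± SD, n = 6 arrays each). Its change was 0.57 ± 0.10, with 0.49 in the second cycle, 0.65 in the first and −0.35 between 24 h and 36 h. Dnajb9, a cochaperone of the endoplasmic reticulum, had 0.58 ± 0.11 on its brighter probe set and 0.21 ± 0.16 on the other. Nxf1, the main export receptor of messenger RNA, had 0.47 ± 0.09. Asb6, a gene of the SOCS box family, had 1.08 ± 0.23, with 0.60 in the second cycle and 1.56 in the first. Nolc1, a nucleolar phosphoprotein gene, had the largest change, 1.56 ± 0.30, but its mean at 12/36 h, 5.94, was under the filter's own limit of 6.77, so the size is uncertain. Klf4, a zinc finger factor that arrests growth in many cells, and Smoc2, a matricellular gene, did not turn: between 24 h and 36 h their means changed by a further 0.49 and 0.03. With the linear term the change of Klf4 was 0.04 ± 0.13 in place of 0.57 ± 0.12, and that of Smoc2 0.16 ± 0.08 in place of 0.35 ± 0.07.

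The 10 genes on the opposite side were Mxd3, Tagln, Pla2g4f, Csf3r, Pycrl, Trav9d-3, Lbp, Cela1, Cyp2c39 and Ctrb1. Mxd3, which encodes a MAX partner that opposes MYC, read 5.97, 6.11 and 6.49 at 24 h and 5.74, 6.42 and 6.15 at 48 h, against 6.53, 8.54 and 8.50 at 12 h and 7.58, 7.49 and 7.70 at 36 h. No 24/48 h array reached the lowest 12/36 h array, the 12 h array of experiment 1. Its change was −1.58 ± 0.26 (adjusted p = 0.0913 by limma), with −1.49 in the second cycle, −1.67 in the first and 1.40 between 24 h and 36 h. The 24/48 h mean of 6.14 was under 6.77, so this size is uncertain too. Tagln, which encodes the smooth muscle protein transgelin, was lower by −0.49 ± 0.09 in all 6 pairs, but its mean also changed by −0.34 between 24 h and 36 h, and with the linear term the change was −0.07 ± 0.10. Csf3r, the receptor gene of a granulocyte growth factor, had −0.43 ± 0.09 and Pycrl, a proline synthesis gene, −0.45 ± 0.11. Pla2g4f, Trav9d-3 and Ctrb1 were read by probe sets whose names end in _r_at or _f_at, which marks probes that may match other transcripts, and Lbp, Cela1, Cyp2c39 and Ctrb1 are genes known mainly from liver or pancreas.

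**Figure D2:**
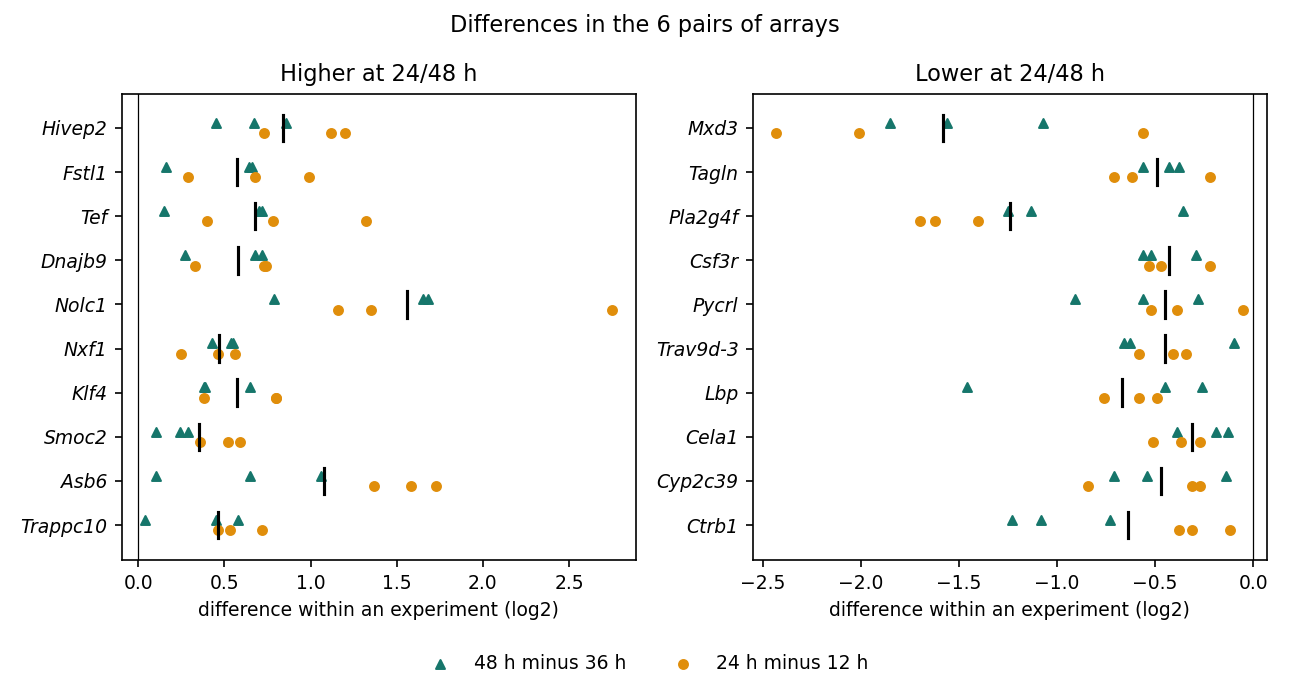
Log2 difference within each of the 6 pairs, 48 h minus 36 h (triangles) and 24 h minus 12 h (circles), for the 10 genes named on each side. Black bars are the fitted changes. All points lie on 1 side of 0 because the genes were selected for that, and the spread shows how far the 3 experiments differ, as for Nolc1 and Mxd3.

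Of the 240 genes higher in all 6 pairs 166 had a lower mean at 36 h than at 24 h, and of the 196 genes lower in all 6 pairs 145 had a higher mean at 36 h than at 24 h. Over all genes 52.2% had a lower mean at 36 h than at 24 h. Both counts share the 24 h and 36 h arrays with the selection of the genes, so they describe the set and test nothing. Of the 10 genes named on each side 8 turned in this sense. The 4 that did not were Klf4 and Smoc2, which were higher, and Tagln and Cela1, which were lower. Only 7 genes had groups that did not overlap at all. Ptbp3, a splicing regulator gene, was the 1 higher (0.0177%), at 8.30 to 8.65 at 24/48 h against 7.72 to 8.29 at 12/36 h. The 6 lower (0.106%) were Sstr4, Zcchc7, Plcg1, Cenpa, Opn1mw and Mxd3. These 7 were chosen after their values were seen. Each had turned between 24 h and 36 h, but groups that do not overlap must turn there, so this is no further result.

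**Figure D3:**
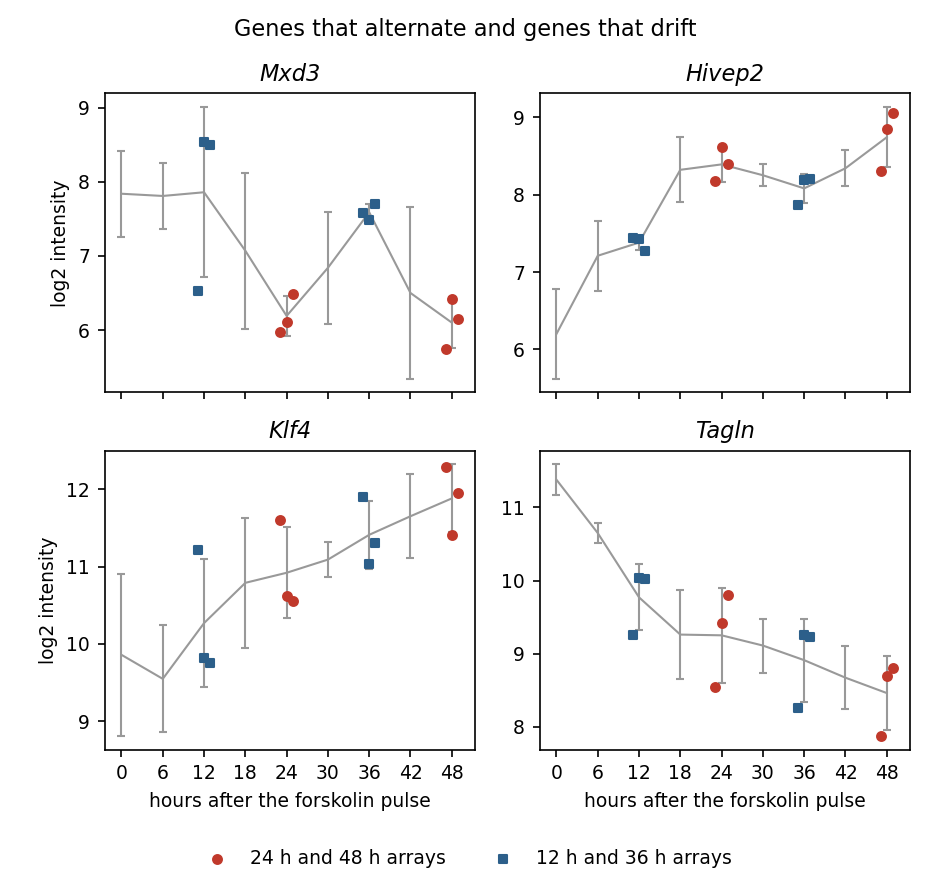
Log2 intensity against hours after the pulse for Mxd3, Hivep2, Klf4 and Tagln, with the 24 h and 48 h arrays as red circles, the 12 h and 36 h arrays as blue squares, and the mean ± SD of 3 arrays at all 9 times in grey. Mxd3 goes down, up and down again from 12 h to 48 h, whereas Klf4 climbs and Tagln declines through all 4 times.

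The cycles were then fitted separately. They share no array, so each gives its own estimate. Neither 48 h against 36 h nor 24 h against 12 h had a call (0% of 7453 probe sets each), with 475 and 830 probe sets at an unadjusted p below 0.05 by limma and a smallest adjusted p of 0.307 and 0.119, in that order of the cycles. Of all genes, 3.26% were higher and 3.12% lower at that level in the second cycle, and 5.9% and 5.83% in the first. The sign of the change was the same in both cycles for 58% of probe sets. Across probe sets, which are not independent replicates, the changes of the cycles correlated at a Pearson r of 0.178 and a Spearman rho of 0.208. Within experiment 1 the signs were the same for 49.6%, within experiment 2 for 56.4% and within experiment 3 for 56.7%. Per3, Mxd3, Arntl and Csf3r had nearly the same change in both cycles, while Cry1, Nr1d2 and Asb6 did not.

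**Figure D4:**
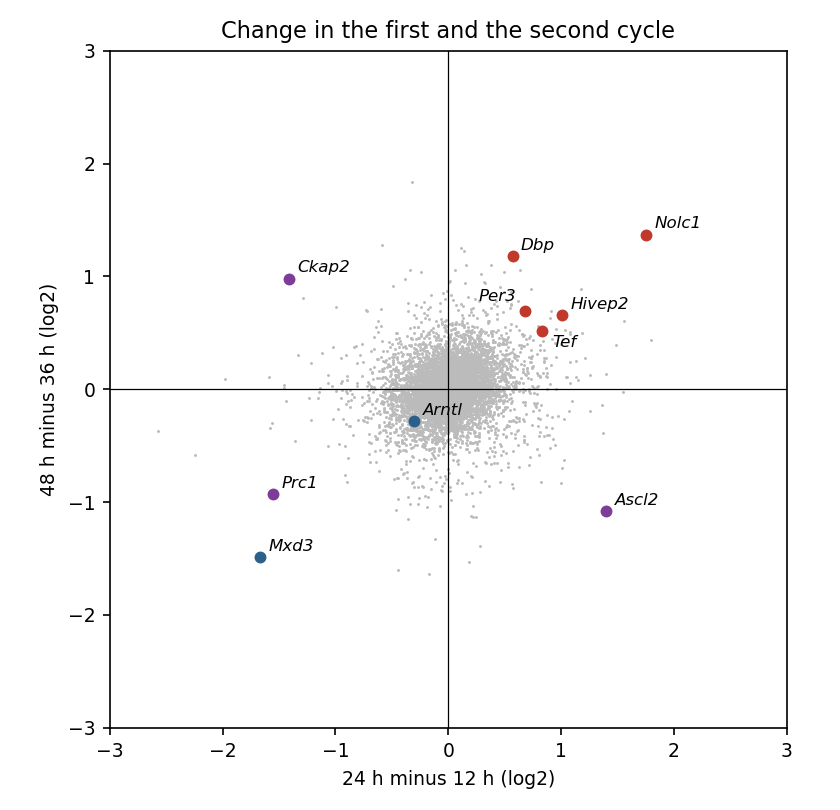
Change in the second cycle (48 h minus 36 h, log2, vertical axis) against change in the first (24 h minus 12 h, log2, horizontal axis) for 7453 probe sets in grey. Red marks genes higher and blue genes lower at 24/48 h in both cycles, and purple marks Prc1, Ascl2 and Ckap2. Most probe sets lie near 0 with a weak upward slope, r = 0.178.

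The list of G2 and mitosis genes had the widest gap between its medians in the cycles. Of 28 measured genes 11 were lower at 48 h than at 36 h (2795 of 5643 over all genes), with a median of 0.04. Of these, 0 were at an unadjusted p below 0.05 by limma (3.12% of all genes). All 28 were lower at 24 h than at 12 h (2740 of 5643 over all genes), with a median of −0.92. Of these, 21 were at that level (5.83% of all genes). The difference between the cycles was below 0.05 unadjusted in 14 of the 28 (5.74% of all genes) and in 0 after adjustment over all probe sets (0% of all), where the smallest adjusted p was 0.702 by limma. Cdc20, the activator of the anaphase-promoting complex, had 0.04 in the second cycle and −1.46 in the first. Ccnb2, a mitotic cyclin gene, had 0.13 and −1.06 in that order, and Kif20a, a mitotic kinesin gene with a 24/48 h mean of 6.18, had −0.37 and −2.57. Cenpa, the centromeric histone gene, had −0.51 and −1.07 and was lower in all 6 pairs, as were Ube2c and Ccna2. Prc1, a gene for a spindle midzone protein, had the smallest p of the list over both cycles, at −1.24 ± 0.32 in 5 of 6 pairs (adjusted p = 0.237 by limma). Without the 12 h arrays of experiments 1 and 3 the list's median over both cycles was −0.18 in place of −0.46, and with the linear term −0.17. Of 30 genes of S phase and replication, 19 were negative (2796 of 5643 over all genes), with a median of 0.04 in the second cycle and −0.14 in the first. Pold1, a replicative polymerase subunit gene, was lower in all 6 pairs at −0.25 ± 0.09.

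Of 21 measured immediate early genes, 18 had a positive change (2847 of 5643 over all genes) and none was called. The medians were 0.34 in the second cycle and 0.04 in the first. In the second cycle 8 were higher at an unadjusted p below 0.05 (3.26% of all genes) and 0 lower (3.12%), and in the first 1 was higher (5.9%) and 1 lower (5.83%). The difference between the cycles was at that level in 4 of the 21 (5.74% of all genes) and in 0 after adjustment. Fos, an AP-1 subunit gene, had 1.22 in the second cycle and 0.14 in the first, Myc 0.79 and 0.04, and Ier3 0.87 and −0.01. Dusp1, a MAP kinase phosphatase gene, was higher in all 6 pairs, by 0.51 ± 0.18, or by 0.07 with the linear term. With that term the list's median was −0.02 in place of 0.20. Of 12 glucocorticoid and KLF genes 11 had a positive change (2847 of 5643 over all genes) and 4 were higher in all 6 pairs (4.25% of all genes), namely Klf4, Dusp1, Fkbp5 and Nr3c1, the glucocorticoid receptor gene, and the median was 0.21, or 0.08 with the linear term.

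Several metabolic and housekeeping lists had small positive medians. Beside the counts that follow, 2847 of 5643 genes over all were positive, 4.25% were higher in all 6 pairs and 3.47% were lower in all 6. Of 18 genes of glycolysis and hypoxia 15 were positive, with a median of 0.12, and Adm, the adrenomedullin gene, at 0.84 ± 0.24, Hk2, a hexokinase gene, at 0.58 ± 0.18, and Ldha, a lactate dehydrogenase gene, at 0.21 ± 0.08 were higher in all 6 pairs. With the linear term these changes were 0.38, 0.10 and 0.07, and between 24 h and 36 h the mean of Hk2 changed by a further 0.38. The median of the list was 0.04 with that term and 0.03 without experiment 2. The 12/36 h mean of Adm, 6.40, was under 6.77. Of 32 ribosome biogenesis and MYC target genes 27 were positive, with a median of 0.09, or 0.03 with the linear term, led by Nolc1 and by Rrs1, a ribosome assembly gene, at 0.44 ± 0.14. Of 32 proteasome genes 24 were positive, with a median of 0.07, or 0.00 with the linear term, and Psmb1, Psmc2, Psma2 and Psmc3 were higher in all 6 pairs by 0.09 to 0.22. Of 13 cytokine, chemokine and NF-kB genes, Ccl7, Ccl2 and Csf1 were higher in all 6 pairs, by 0.42 ± 0.14, 0.37 ± 0.13 and 0.18 ± 0.08, and Relb, an NF-kB subunit gene, lower in all 6, by −0.35 ± 0.09. These 4 were chosen for that agreement. The means of Ccl7, Ccl2 and Csf1 changed by a further 0.33, 0.52 and 0.23 between 24 h and 36 h, and with the linear term the changes were 0.04, −0.08 and −0.02, so that Ccl2 and Csf1 had the other sign. That of Relb was −0.13.

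The medians of extracellular matrix, heat shock, ATF4, NRF2, interferon, lysosome and fatty acid genes lay between −0.05 and 0.05, and that of 14 cholesterol synthesis genes was −0.09. Actin and SRF target genes had a median of −0.11 in the second cycle, where 16 of 21 were negative (2795 of 5643 over all genes), and of 0.12 in the first. Members of these lists with 1 sign in all 6 pairs went both ways, where 4.25% of all genes were higher and 3.47% lower in all 6. Higher were Txnrd1, a thioredoxin reductase gene, by 0.40 ± 0.11, Gsta4, a glutathione transferase gene, by 0.37 ± 0.15, Col6a2, a collagen gene, by 0.22 ± 0.07, Lpl, lipoprotein lipase, by 0.45 ± 0.12 and Ifi202b by 0.44 ± 0.12, besides Dnajb9, Xbp1, Elovl5, Angptl4 and Ifi204. Lower were Timp1, a metalloproteinase inhibitor gene, at −0.33 ± 0.09, Lox, the lysyl oxidase gene, at −0.29 ± 0.09, Acly, the ATP citrate lyase gene, at −0.29 ± 0.13, Fabp5, a fatty acid binding protein gene, at −0.27 ± 0.15, and Csrp2, an actin regulator gene, at −0.38 ± 0.12, besides Tagln, Tagln2, Lamp1 and Npc2. The means of Lpl and Ifi202b changed by a further 0.42 and 0.50 between 24 h and 36 h, and with the linear term their changes were 0.01 and −0.03. Csrp2 had 0.16 with that term, the other sign, while Timp1 had −0.30 and Col6a2 0.20. Lox had −0.07 in the second cycle, −0.51 in the first and −0.13 with that term. Agreement in all 6 pairs left out, among others, the matrix and lysosome genes with the smallest p of their lists. These were Dpt, at 0.81 ± 0.18, and Lamp2, at 0.29 ± 0.12, each higher in 5 of 6 pairs. The mean of Dpt changed by a further 1.01 between 24 h and 36 h. With the linear term the change of Dpt was −0.10 and that of Lamp2 0.16.

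The median change was −0.25 over 4 macrophage and leukocyte markers, all negative, −0.15 over 2 epithelial and endothelial markers, both negative, −0.12 over 5 neuron and glia markers, 3 of them negative, −0.10 over 7 muscle markers, 6 of them negative, and 0.12 over 2 adipocyte markers, of which Lpl was positive and the other negative. The median of 14 fibroblast markers was −0.01, and Thy1, a surface marker among them, was higher in all 6 pairs by 0.35 ± 0.09, or by 0.16 with the linear term. Over all genes 2796 of 5643 were negative. The part of these markers in the other results was not tested. None of the 31 lists held a called gene.

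**Figure D5:**
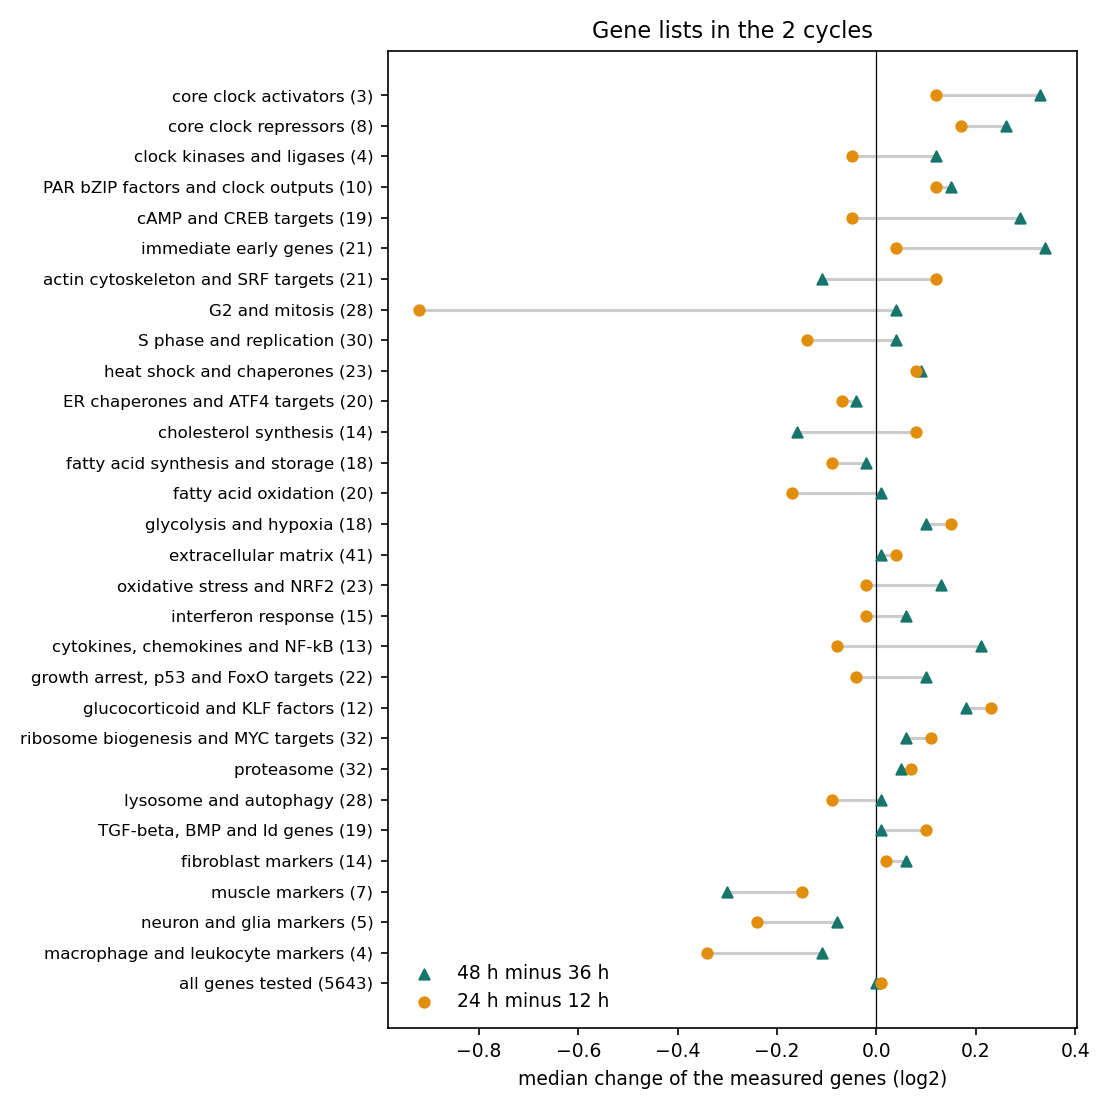
Median log2 change of each gene list with at least 3 measured genes, 48 h minus 36 h (triangles) and 24 h minus 12 h (circles), with the number of measured genes in parentheses. G2 and mitosis stands at 0.04 in the second cycle and −0.92 in the first, and all genes tested at 0.00 and 0.01.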

How the data were processed

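Biotin-labelled RNA was hybridised to Affymetrix mouse U74v2 arrays, per the labels' protocols, 1 array per sample. The authors deposited linear intensities, 1 per probe set. Their algorithm is not stated in these sources, but the array means after a 2% trim of both tails were 500.28 to 500.35 in the 12 arrays, so the intensities had been scaled. The deposited intensities were taken as log2(intensity + 12.1), the 10th percentile of all values, and quantile normalized over 27 arrays, since array medians spread over 0.25. The 66 control probe sets and those under the 40th percentile of mean level were left out. Fold changes on this scale understate those of dim probe sets, and detection calls were not used here. The number of arrays limits the precision. Of 12488 probe sets 10855 had 1 gene symbol and 396 several, and 1193 that are no controls were not listed in the annotation.

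Phase, experiment and cycle were fitted in limma 3.58.1 (R 4.3.3), with eBayes along an intensity trend and Benjamini-Hochberg adjustment, and the code was tested on simulated data. The named genes were called genes or, failing those, the 10 with the smallest p in each direction. Those 10 were taken among genes of 1 sign in all 6 pairs. Every measured gene of the clock activator, repressor and output lists and 5 genes for the difference between cycles were added. The member of each list with the smallest p was also chosen, but not all of these are described. Psmd14, Hsph1, Mvk, Tgfb3 and Cdkn2c are among those left out. Other list members are named as examples chosen after their values were seen. The comparison, gene lists and rules were chosen with earlier results of these data known. Deviations from the time means correlated between arrays of 1 experiment, with r from 0.474 to 0.616, 0.349 to 0.599 and 0.153 to 0.398 in experiments 1 to 3, so the experiment number paired the samples. Alternatives changed the scaling, pseudocount, filter, block, drift term, variance model, weights and arrays used.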

Additional observations from a re-analysis of the deposited data

Results flagged for a closer look

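In 7 of 92 groups of 6 arrays (7.61%), 1 array lay far below the other 5, where chance marks about 1 in 20 groups. At 24/48 h these were Nolc1 at 24 h in experiment 3, at 6.33 with the nearest array at 7.47, Bhlhe40 at 24 h in experiment 1, at 6.97 against 8.06, and 3 genes at 48 h, namely Asb6 in experiment 1, at 8.01 against 8.58, Lbp in experiment 1, at 6.67 against 8.16, and Pycrl in experiment 3, at 8.45 against 8.95. At 12/36 h they were Per1 at 12 h in experiment 1, at 6.59 against 7.55, and Dbp at 36 h in experiment 2, at 5.00 against 7.02. All 7 lay on the low side, and 4 of them on arrays of experiment 1.

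In 5 genes the change in the second cycle differed from that in the first with the smallest p of all genes, but none passed the adjusted test of that difference by limma, the smallest adjusted p being 0.702. Ckap2, a gene for a spindle protein, had 0.98 in the second cycle and −1.41 in the first, a difference of 2.39. Ascl2, a basic helix-loop-helix factor gene, had −1.08 and 1.40 in that order, a difference of −2.48. Cxcl1, a chemokine gene, had 0.70 and −0.73, a difference of 1.43, and a dimmer probe set of it had 0.97 and −0.38. Nbl1, a BMP antagonist gene, had −0.32 and 0.52, a difference of −0.84. Hmox1, the heme oxygenase 1 gene, had 0.80 and −0.03, a difference of 0.83. In each the 3 pairs of one cycle had the opposite sign to the 3 pairs of the other.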

How the results depend on the processing

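The phase comparison, with 1 call among 7453 probe sets, had 0 calls with arrays centred on their medians, with no filter on low values, with each pair as a replicate block, with eBayes without the intensity trend and without the replicate block, where 314 probe sets were at an unadjusted p below 0.05 by limma. It had 4 calls with all 27 arrays, 6 with array weights, 2 without the 12 h arrays of experiments 1 and 3, and 0 to 6 without any 1 experiment. The 6 came without experiment 1 and did not include 92631_f_at. Calls for 24 h against 12 h were 2 with all 27 arrays, 2 without the 12 h arrays of experiments 1 and 3 and 1 to 9 without any 1 experiment, against 0 with all. For 48 h against 36 h they were 0 to 2 without any 1 experiment, and for the difference between the cycles 1 without those 12 h arrays. The sign agreement between the cycles was 53.7% to 59.6% of probe sets without any 1 experiment. With 1 experiment left out, 630 to 885 probe sets were higher and 577 to 811 lower in all remaining pairs, against 315 and 268 in all 6, because fewer pairs have to agree. With arrays centred on their medians these were 463 and 171, so that 73% were higher in place of 54%. At an unadjusted p below 0.05 with 1 sign in both cycles they were then 703 and 275, or 71.9% higher in place of 54.1%.

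Of 643 recomputed values of 41 genes and probe sets 14 had the other sign, all of them small. Members named only as examples from lists are not among the 41. Pnp was 0.19 with the linear term. Cirbp was 0.01 with the scaling as deposited, 0.04 with arrays centred on their medians, 0.03 with array weights and 0.12 without the 12 h arrays of experiments 1 and 3. Timeless was 0.01 with arrays centred on their medians and 0.04 without those 12 h arrays, where Nr1d1 was 0.01. Without any 1 experiment the ranges were −0.04 to 0.03 for Cirbp, −0.12 to 0.08 for Timeless, −0.03 to 0.43 for Elovl6, −0.17 to 0.04 for Nr1d1, −0.28 to 0.11 for Nfil3 and −0.01 to 0.18 for Cry2. The causes were not tested.

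Each time point had 3 arrays, so small differences could not be told from the spread. The 24/48 h arrays were also harvested 12 h later in serum-free culture than their 12/36 h partners, in both cycles. A steady drift would therefore give the same sign in both cycles and in every pair, and the cycle block does not remove it. Phase and time in culture thus cannot be told apart by the change fitted with that block or by its sign. The linear term in hours takes out a steady drift only. Intensity over background was not measured, so dim levels are uncertain.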
